A study of Mus musculus with 18 samples.

Results

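The distal colon of BALB/c mice without a working Il10 gene (Il10KO) was examined at week 10 of life (W10, 3 mice) and set against that of Il10KO mice at week 6 (W6, 3 mice), the groups being taken from the genotype and age in the labels. These are 6 of the 18 libraries of a series that also holds Il10KO mice at weeks 8, 12 and 14 and wild-type (WT) mice at week 6. Both groups carried the same Il10 deletion on the same strain, and each mouse was sampled at 1 age. A piece of distal colon about 0.5 cm long was lysed whole, so that mucosa, immune cells, muscle and attached fat all contributed RNA, and polyadenylated RNA was sequenced with paired reads. W10 replicates 1, 2 and 3 came from cages B, C and F, and W6 replicates 1, 2 and 3 from cages A, B and F. Values of the 3 libraries of a group are given in that order throughout. No WT mouse was sampled after week 6, so colitis and growth between the ages cannot be told apart in this comparison, and in pieces of whole tissue fewer cells of a type and less RNA per cell cannot be told apart either.

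Macrophages and T helper cells that meet gut bacteria are held in check by interleukin 10. Mice that lack it develop colitis, in which T cells make interferon gamma and interleukin 17. Interferon gamma acts through interferon regulatory factors, among others, on genes of cell-autonomous defence, antigen presentation and T cell recruitment, while interleukin 1, interleukin 17 and bacterial products act through NF-kB on chemokines that recruit neutrophils.

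The libraries compared held 29747473, 31434575 and 32844928 estimated counts at W10 and 28060701, 28910893 and 27994123 at W6. RNA integrity numbers (RIN) were 8.5, 8.7 and 9 at W10 and 8.8, 9 and 8.9 at W6. The lowest of the series were those of week 14 replicates 2 and 3, at 6.5 and 5.8. RIN as a covariate over the 18 libraries, used below, is therefore not an adjustment between W10 and W6 alone. Il10 had 0 estimated counts in all 6 libraries, which allows up to 0.0903 to 0.115 CPM at W10 and 0.0918 to 0.0948 CPM at W6 by counting error alone. The 3 WT libraries had 1, 0 and 3 counts, so the transcript level could not separate the genotypes in this tissue. Lipocalin, a protein marker of gut inflammation recorded in the labels, was 554.3, 339.5 and 363.7 ng/g in W10 mice, against 4.72, 2.27 and 2.31 ng/g in W6 mice. The means were 419.2 ± 117.6 and 3.1 ± 1.4 ng/g (SD, n = 3 each). The groups did not overlap, and their difference of 416.1 ng/g had p = 0.1 in an exact two-sided permutation test, the smallest p that 3 against 3 allows.

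Of 16300 genes tested with edgeR's quasi-likelihood F-test at a Benjamini-Hochberg adjusted p under 0.05, 2372 were higher at W10 (14.6%) and 1545 were lower (9.48%), together 24% of the genes. These shares are the background for every count below. Changes are log2 fold changes, W10 over W6, with a standard error derived from the F statistic of the test. Levels are CPM scaled by TMM, which serve to compare libraries and not genes of different length. At least 2-fold change was found in 1794 of the higher genes and 1303 of the lower ones, and at least 16-fold change in 210 and 32 of them. The median over all genes was 0.01, and it was -0.26 when libraries were scaled by their totals alone and -0.34 on log2 TPM, so that list medians within that distance of 0 depend on the scaling. All 3 W10 libraries lay above all 3 W6 libraries for 4478 genes (27.5%), and below them for 4938 (30.3%).

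The count of calls depended on single libraries. Leaving out W6 replicate 1, 2 or 3 left 767, 994 or 1103 genes called, and leaving out W10 replicate 1 or 2 left 1090 or 1824, whereas 5242 were called without W10 replicate 3. Of 319 genes followed one by one, 160, 142 or 127 lost their call without W6 replicate 1, 2 or 3, and 139, 71 or 14 without W10 replicate 1, 2 or 3. The model mattered as well. On log2(TPM + 1), called log2 TPM below, 6% of the genes were higher and 13.9% lower, with RIN as a covariate 24.3% and 22.2%, without the week 14 libraries 24.7% and 27%, with limma-voom and a weight for each group 22% and 21.1%, in the 6 libraries alone 22% and 18%, and with DESeq2 20.4% and 16.4%. Counts of a list under these settings are to be read against these shares. They are given for some of the lists where they are over 1.5 times apart from those of the fit described. Not every such count is given. Cages overlapped the ages in part. With cage as a factor in the 15 Il10KO libraries 2 genes passed, Nos2 and Nfkbiz (adjusted p = 0.0395 each), and 2914 genes had an unadjusted p under 0.05. Cages B and F each held 1 library of each age. All 3917 genes called had the same sign in the pair of cage B, and 3895 of them in the pair of cage F. These pairs are among the 6 libraries that gave the calls, so the shared sign does not test the part of cage. W10 libraries were less alike than W6 libraries, with Pearson's r across genes of 0.919 to 0.962 at W10 and 0.984 to 0.986 at W6; genes are not independent replicates.

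Markers of several cell types moved with the age. The summed level of 8 fibroblast markers was 824, 831 and 1343 CPM in W10 colons, against 3407, 2263 and 2726 CPM in W6 colons. For 8 smooth muscle markers the sums were 1361, 5190.0 and 5666 CPM at W10, against 7433, 6863 and 6635 CPM at W6. The sum was far lower in W10 replicate 1 than in the other W10 libraries. None of the 8 smooth muscle markers passed the test, whereas 5 of the 8 fibroblast markers fell. Fat cell markers summed to 12, 20.1 and 19.1 CPM at W10 and 249, 133 and 194 CPM at W6. In each W6 library most of that sum was Pck1, a gene of gluconeogenesis described below. All 3 W10 sums lay below all 3 W6 sums in these 3 types, as they did for endothelium at 51, 60.04 and 77.2 CPM in W10 colons and 183, 172 and 157 CPM in W6 colons. The 10 epithelial markers overlapped between the ages, at 12740.0, 15130.0 and 16470.0 CPM at W10 and 12600.0, 14690.0 and 15080.0 CPM at W6. General leukocyte markers summed to 733, 558 and 230.0 CPM at W10 and 289, 213 and 318 CPM at W6, and W10 replicate 3 lay within the W6 range. Neutrophil markers were uneven, with 6028, 984 and 635 CPM at W10, against 160.3, 199 and 180.5 CPM at W6; in the W6 libraries Ly6g made up most of the sum. Squamous markers of the anal margin overlapped, at 14.3, 12.3 and 11.6 CPM at W10 and 8.9, 14.9 and 14.8 CPM at W6. The part of cell composition in the gene changes below was not tested.

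**Figure D1:**
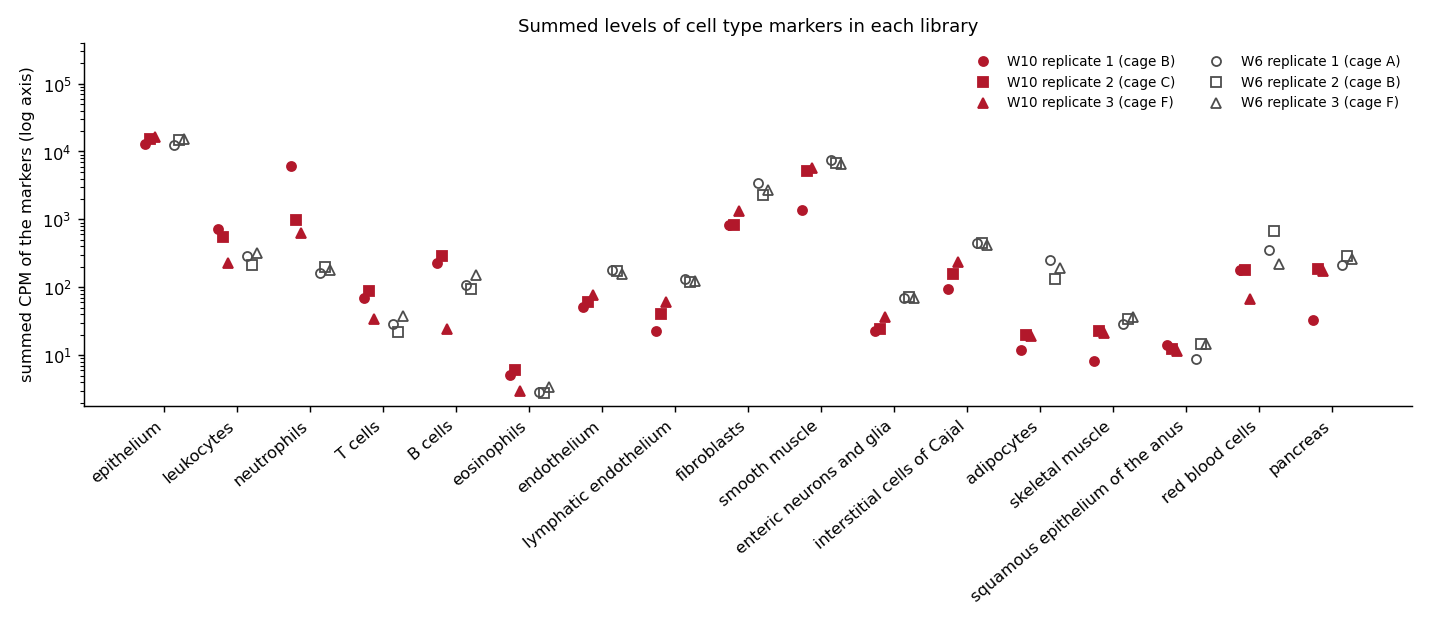
Summed CPM (log axis) of marker lists of 17 cell types in each library, with filled red symbols for the 3 W10 libraries and open grey symbols for the 3 W6 libraries. Fibroblast, endothelial and adipocyte sums of all W10 libraries sit below those of all W6 libraries, while the epithelial sums overlap.

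Interferon-inducible GTPases made up 2 of the 44 gene lists examined, and these were the lists in which every gene rose. Immunity-related GTPases and guanylate-binding proteins are GTP-binding proteins that coat and break the vacuoles of intracellular microbes. All 8 immunity-related GTPases and all 11 guanylate-binding proteins that were listed rose, with all W10 libraries above all W6 libraries. The median log2 fold change was 6.36 for the first family and 4.40 for the second (4.84 and 2.92 on log2 TPM). Within cage B the medians were 4.97 and 2.84, and within cage F 6.02 and 3.94. Every immunity-related GTPase passed whichever of the 6 libraries was left out, as did 10 or 11 of the guanylate-binding proteins.

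The promoters of the 2 families are shown because of the motifs they share. In RefSeq promoters of GRCm38.p6, running from 250 bases before to 50 bases after the start of transcription, the core of the interferon-stimulated response element, TTTC and TTTC parted by 2 free bases on either strand, occurred in 6 of 6 promoters of immunity-related GTPases and in 5 of 6 promoters of guanylate-binding proteins that were in the table. Among 15626 promoters of 12302 genes tested it occurred in 3.26%, in 6.15% of those of genes called higher and in 2.07% of those of genes called lower. The gamma-activated site TTCNNNGAA occurred in 5 of 6 and in 2 of 6 of these promoters, against 7.11% of all promoters, 9.29% of those called higher and 6.53% of those called lower. A match of letters describes the sequence and shows no binding. In the windows below, 5′ to 3′ on the gene's strand, capitals mark every match to either motif, with the free bases inside a match included.
Gm12250: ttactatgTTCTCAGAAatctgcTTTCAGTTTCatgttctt
Igtp: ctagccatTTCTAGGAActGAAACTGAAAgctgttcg
Irgm2: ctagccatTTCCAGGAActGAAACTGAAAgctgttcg
Tgtp1: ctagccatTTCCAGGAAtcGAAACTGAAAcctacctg
Tgtp2: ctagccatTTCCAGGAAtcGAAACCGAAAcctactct
Irgm1: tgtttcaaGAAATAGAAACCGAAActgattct
Gbp2: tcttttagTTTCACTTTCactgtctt
Gbp2b: acttctaaTTTCACTTTCttctttat
Gbp3: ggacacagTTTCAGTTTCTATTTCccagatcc
Gbp5: ttgtgtagTTTCAATTTCagtttaga
Gbp7: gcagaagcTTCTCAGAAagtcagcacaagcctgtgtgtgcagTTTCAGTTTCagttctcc

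These windows lie at chr11:58183774-58183814 (forward strand), chr11:58199503-58199539 (forward), chr11:58214894-58214930 (forward), chr11:48992306-48992342 (reverse), chr11:49064265-49064301 (reverse) and chr11:48871427-48871458 (reverse) for the immunity-related GTPases. For the guanylate-binding proteins they lie at chr3:142620596-142620621, chr3:142594702-142594727, chr3:142559991-142560022, chr3:142496761-142496786 and chr3:142530241-142530300, all on the forward strand. In the windows of Igtp, Irgm2, Tgtp1 and Tgtp2 the gamma-activated site stands just before the response element, which reads on the other strand. In Gm12250 and Gbp7 a gamma-activated site precedes the element, and in Irgm1 and Gbp3 2 overlapping matches to the response element run together. Duplicated genes of a family can share such stretches by descent.

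Tgtp1 had 284, 1435 and 972 CPM in W10 colons, against 3, 4.74 and 4.54 CPM in W6 colons. The groups were far apart, and W10 replicate 1 was lowest of its group. Its log2 fold change was 7.77 ± 1.30 (adjusted p = 0.0033). Tgtp2, its neighbour on chromosome 11, had 97, 417 and 308 CPM in W10 colons, against 3.18, 4.01 and 4.26 CPM in W6 colons, and it rose by 6.16 ± 1.00 (adjusted p = 0.00305). Iigp1, which attacks the vacuole of Toxoplasma, had 351, 1187 and 880.2 CPM in W10 colons, against 4.96, 7.75 and 5.64 CPM in W6 colons, with the same order among the W10 libraries. The regulators Irgm1, Irgm2 and Igtp, which keep the effector GTPases off the cell's own membranes, had lower fold changes than the effectors. Irgm1 had 181, 627 and 599 against 32.6, 51.3 and 55.3 CPM (W10 against W6) and rose by 3.34 ± 0.67, Irgm2 rose by 4.08 ± 0.74 and Igtp by 5.67 ± 1.08. The difference between regulators and effectors was not tested. Tgtp1 and Tgtp2, Iigp1 and Gm4951, and several guanylate-binding proteins are near copies. The split of reads between them, and so the rise of a single copy, is uncertain, and the counts of 8 and 11 rises rest on that split. Summed over the family, immunity-related GTPases had 1348, 5587 and 4427 against 68.3, 108.4 and 122.5 CPM (W10 against W6). The sums of guanylate-binding proteins were 1472, 4809 and 4504 against 149.1, 220.1 and 235 CPM.

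Among guanylate-binding proteins Gbp4 had 345, 861 and 663 CPM in W10 colons, against 11.4, 11 and 11.3 CPM in W6 colons, and it rose by 5.79 ± 0.86 (adjusted p = 0.00209). Gbp2, which directs caspase 11 to bacterial membranes, had 239, 887 and 1015 CPM in W10 colons, against 48.4, 66.5 and 74.4 CPM in W6 colons. The W10 libraries again lay in the order replicate 1 lowest, with replicates 2 and 3 several times higher and all W6 libraries lower still. It rose by 3.50 ± 0.68 (adjusted p = 0.00589). Gbp5, an aid to inflammasome assembly, rose by 3.89 ± 0.66 and Gbp7 by 3.26 ± 0.57. Gbp10 and Gbp11 rose by 6.17 ± 0.93 and 6.52 ± 1.14. Gbp9 had the smallest rise of the family, 2.76 ± 0.35, at 40.5, 65.7 and 72.1 against 8.66, 9.77 and 7.96 CPM (W10 against W6).

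**Figure D2:**
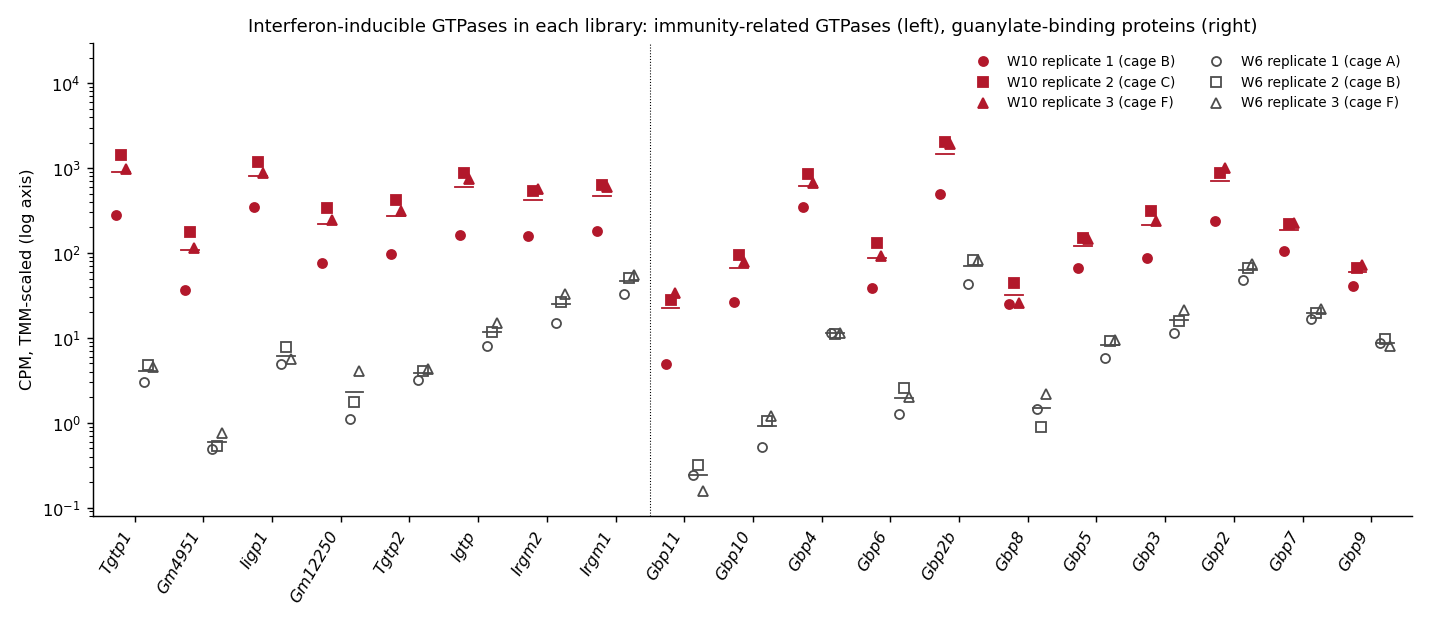
CPM (log axis) of the 8 immunity-related GTPases (left of the dotted line) and 11 guanylate-binding proteins (right) in each library; horizontal bars are group means. In every gene all filled W10 symbols lie above all open W6 symbols, and W10 replicate 1 (circle) is the lowest W10 library in all 8 immunity-related GTPases.

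Interferon gamma itself and genes of its signalling rose as well. Ifng had 6.15, 15.2 and 5.06 CPM in W10 colons, against 0.0612, 0 and 0.0313 CPM in W6 colons, which is 774 counts over the W10 libraries and 3 over the W6 libraries, a ratio of 280.5 with a 95% exact counting interval of 95.6 to 1363. All 3 W10 libraries were above all W6 libraries, where it was at the limit of detection. Socs1, which blocks the interferon gamma receptor's kinases, had 89.5, 314 and 230.2 CPM in W10 colons, against 4.04, 3.07 and 4.07 CPM in W6 colons, and it rose by 5.82 ± 1.03 (adjusted p = 0.00385). Irf1, a transcription factor that interferon gamma induces, rose by 2.62 ± 0.48, at 264, 766 and 609 against 82.7, 92.6 and 91.7 CPM (W10 against W6), and Irf8 by 2.10 ± 0.41. In all, 10 of 19 genes of interferon receptors and signalling rose and none fell, with a median of 1.14 (0.64 on log2 TPM). The receptor chain Ifngr1 rose by 0.90 ± 0.24, while the other chain, Ifngr2, and the type I receptor chains Ifnar1 and Ifnar2 did not pass, at 0.01, -0.16 and 0.19. Of the 19 genes 5, 6 or 6 rose without W6 replicate 1, 2 or 3.

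The chemokines that draw CXCR3-bearing T cells rose too. Cxcl9 had 228, 460.0 and 189 CPM in W10 colons, against 1.84, 4.01 and 2.85 CPM in W6 colons, and it rose by 6.65 ± 1.22 (adjusted p = 0.00456). Cxcl10 had 38.2, 233 and 78.9 CPM in W10 colons, against 1.04, 1.93 and 1.63 CPM in W6 colons, with W10 replicate 2 highest, and rose by 6.25 ± 1.42. Their receptor Cxcr3 did not pass, at 0.94 (adjusted p = 0.0795). Cxcl11, the third ligand, rose as well, and without W6 replicate 1 no more than 1 of the 4 genes listed passed.

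Most genes of antigen presentation on MHC class I rose. Of 19 genes listed 17 rose and none fell, with a median of 2.31, and 10 rose when W6 replicate 1 or 2 was left out. Nlrc5, the transactivator of class I genes, had 22.4, 39.2 and 34.2 CPM in W10 colons, against 1.35, 1.77 and 2.85 CPM in W6 colons, and it rose by 4.0 ± 0.60 (adjusted p = 0.00209). The immunoproteasome subunits Psmb8 and Psmb9, which cut proteins into peptides for class I, rose by 3.91 ± 0.67 and 4.13 ± 0.78. Psmb9 had 262, 527 and 307 CPM in W10 colons, against 18.5, 19.6 and 24.7 CPM in W6 colons. The peptide transporter Tap1 had 167, 500.2 and 539 CPM in W10 colons, against 28.4, 34.7 and 48 CPM in W6 colons, without overlap, and rose by 3.44 ± 0.63. Of the heavy chains, H2-K1 rose by 1.91 ± 0.44 and H2-D1 by 1.58 ± 0.38; H2-Q genes, which are near copies of each other, rose by 3.61 ± 0.71, 2.87 ± 0.50 and 1.38 ± 0.33 for H2-Q7, H2-Q6 and H2-Q4. The light chain B2m had 3278, 3704 and 2015 CPM in W10 colons, against 537, 558 and 601 CPM in W6 colons, and it rose by 2.41 ± 0.53 (adjusted p = 0.0105). The loading factor Tapbp and the trimming peptidase Erap1 did not pass, at 0.94 and 0.27.

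A set of genes was high in all 3 W10 mice, at levels that were between 1.12-fold (Ido1) and 1.77-fold (Nos2) apart. Nos2, the inducible nitric oxide synthase of macrophages and epithelium, had 373, 554 and 659 CPM in W10 colons, against 0.581, 1.2 and 1.32 CPM in W6 colons. It is on chromosome 11, 78920787 to 78960254, forward strand (GRCm38), and it was over 100 CPM in each W10 library and near 1 CPM in each W6 library. It rose by 8.99 ± 0.97 (adjusted p = 0.000361). Ido1, which starts the breakdown of tryptophan to kynurenine, had 372, 338 and 379.8 CPM in W10 colons, against 0.489, 0.632 and 0.908 CPM in W6 colons. The W10 libraries were within a narrow range, and all W6 libraries were under 1 CPM. Il18bp, a secreted inhibitor of interleukin 18 that interferon gamma induces, had 142, 168 and 143 CPM in W10 colons, against 4.53, 4.24 and 6.27 CPM in W6 colons, and it rose by 4.91 ± 0.85 (adjusted p = 0.00351).

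Fut2, which adds terminal fucose to epithelial glycans, had 661, 504 and 759 CPM in W10 colons, against 73, 91.1 and 74.4 CPM in W6 colons, and it rose by 3.01 ± 0.30 (adjusted p = 0.00036). Steap4, a metalloreductase of inflamed epithelium, had 338, 320.4 and 258 CPM in W10 colons, against 15.2, 8.47 and 8.74 CPM in W6 colons. Both genes had W10 libraries well above W6 libraries in every pairing. Ptk6, a non-receptor kinase of differentiated epithelium, had 124, 101 and 101 CPM in W10 colons, against 10.0, 9.17 and 9.4 CPM in W6 colons, and it rose by 3.51 ± 0.40 (adjusted p = 0.000361). Zc3h12a, the endonuclease regnase 1 that degrades cytokine mRNAs, had 131, 194 and 168 CPM in W10 colons, against 12.7, 8.6 and 10.7 CPM in W6 colons. Nfkbiz, which encodes the nuclear protein IkB zeta needed for secondary NF-kB and interleukin 17 targets, had 177, 182 and 211 CPM in W10 colons, against 18.6, 18 and 20.0 CPM in W6 colons, and it rose by 3.33 ± 0.37 (adjusted p = 0.000361). Card14 and Sbno2 were in the same set by p, rising by 1.87 ± 0.20 and 1.92 ± 0.22. Of all genes called, 1157 had their W10 libraries within 1.5-fold of each other, and 161 had them over 8-fold apart.

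Of a list of epithelial and phagocyte oxidases, their partners and the peroxidase Gpx2, 10 of 16 genes rose, none fell, and the median was 1.49 (0.88 on log2 TPM). Dual oxidase 2 makes hydrogen peroxide at the luminal membrane and needs the maturation factor Duoxa2. Duoxa2 had 455, 391 and 224 CPM in W10 colons, against 18.8, 21.6 and 18.6 CPM in W6 colons, and it rose by 4.18 ± 0.56 (adjusted p = 0.00114), and Duox2 rose by 1.51 ± 0.35, at 179.7, 199 and 346 against 79.1, 90.0 and 85.9 CPM (W10 against W6). Xdh, a source of superoxide and urate, had 285, 575 and 699 CPM in W10 colons, against 47, 55.7 and 62.6 CPM in W6 colons. The NADPH oxidase of colon epithelium, Nox1, and its organiser Noxo1 rose by 1.23 ± 0.29 and 1.65 ± 0.50. The phagocyte oxidase subunit Cybb did not pass, at 0.79 (adjusted p = 0.0884). Gpx2, which removes peroxides and so does the reverse of the oxidases, had 2622, 935 and 765 CPM in W10 colons, against 167, 193 and 230.0 CPM in W6 colons, with W10 replicate 1 highest, and rose by 2.87 ± 0.69. Without W6 replicate 1, W6 replicate 2 or W10 replicate 1, 4, 5 or 5 of the 16 rose.

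Most neutrophil-attracting chemokines and most genes of the interleukin 1 family that rose were highest in W10 replicate 1, the library in which the GTPases were lowest. An NF-kB site, GGGA and TTCC parted by 2 free bases on either strand, occurred in 4 of 6 promoters of the list that were in the table, against 1.48% of all promoters, 1.84% of those of genes called higher and 1.38% of those of genes called lower. The windows are shown with each match in capitals; in the 3 chemokines the match on one strand overlaps a match on the other.
Cxcl1: tgtactccGGGAATTTCCCtggcccgg
Cxcl2: tgagctcaGGGAATTTCCCtggtcccc
Cxcl3: gctgcgggGGGAATTTCCCcagcccgg
Csf3r: ctgaggcaGGAAGGTCCCtagctcac

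Their positions in GRCm38.p6 are chr5:90891166-90891192, chr5:90903794-90903820, chr5:90786020-90786046 and chr4:126024522-126024547, all on the forward strand, and the capitals of the 3 chemokines read the same. Cxcl1, a ligand of CXCR2, had 68.8, 14.9 and 7.38 CPM in W10 colons, against 0.0612, 0.158 and 0.125 CPM in W6 colons. No W6 library reached the lowest W10 library, but the W10 libraries themselves differed by nearly an order of magnitude. It rose by 8.00 ± 1.60 (adjusted p = 0.0067). Cxcr2, the receptor on neutrophils, had 42.5, 5.87 and 2.32 CPM in W10 colons, against 0.0612, 0.0948 and 0.0313 CPM in W6 colons, and it rose by 7.99 ± 1.61, and Csf3r, the receptor of the neutrophil growth factor G-CSF, had 53.8, 8.74 and 5.57 CPM in W10 colons, against 1.74, 1.55 and 1.47 CPM in W6 colons, and it rose by 3.83 ± 0.93. Cxcl2 had 32.4, 3.62 and 1.29 CPM in W10 colons, against 1 count in 1 W6 library, a ratio of 1078 with a 95% exact counting interval of 193.1 to 42640. The growth factor Csf3 and the platelet chemokine Pf4 did not pass, at 4.33 (adjusted p = 0.108) and -0.30. Of the 8 genes tested, 6 rose; 3 rose when W10 replicate 1 or any 1 of the W6 libraries was left out.

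Of the interleukin 1 family, the genes that rose showed this order too, except Il18bp. Il1b had 369, 47.1 and 16 CPM in W10 colons, against 2.42, 1.3 and 3.1 CPM in W6 colons, so that W10 replicate 1 was several times above the other W10 libraries and all were above W6. It rose by 5.98 ± 1.43 (adjusted p = 0.0137). Il1f9, the epithelial cytokine interleukin 36 gamma, had 52.1, 4.85 and 0.903 CPM in W10 colons, against 0.184, 0.126 and 0.157 CPM in W6 colons, and it rose by 6.91 ± 1.71. Il1a rose by 3.52 ± 1.07, the decoy receptor Il1r2 by 3.67 ± 1.02, and the interleukin 18 receptor chains Il18r1 and Il18rap by 2.16 ± 0.51 and 2.32 ± 0.55. The signalling receptor Il1r1, the receptor antagonist Il1rn and the cytokines Il18 and Il33 did not pass, at -0.69, -0.24, 0.38 and 0.41. In all, 8 of 13 rose, 3 on log2 TPM, and 1 rose without W10 replicate 1 and 1 to 3 without one of the W6 libraries. Within cage B the median of the list was 3.40, and within cage F it was 0.28. For the immunity-related GTPases the medians of W10 replicates 1, 2 and 3 over the W6 mean were 4.92, 7.05 and 6.61, and for the neutrophil-attracting chemokines they were 8.51, 5.60 and 3.77. The neutrophil marker sums given above had the order of the second group. Genes such as Csf3r and Cxcr2 are in both lists, so the shared order is in part built in.

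**Figure D3:**
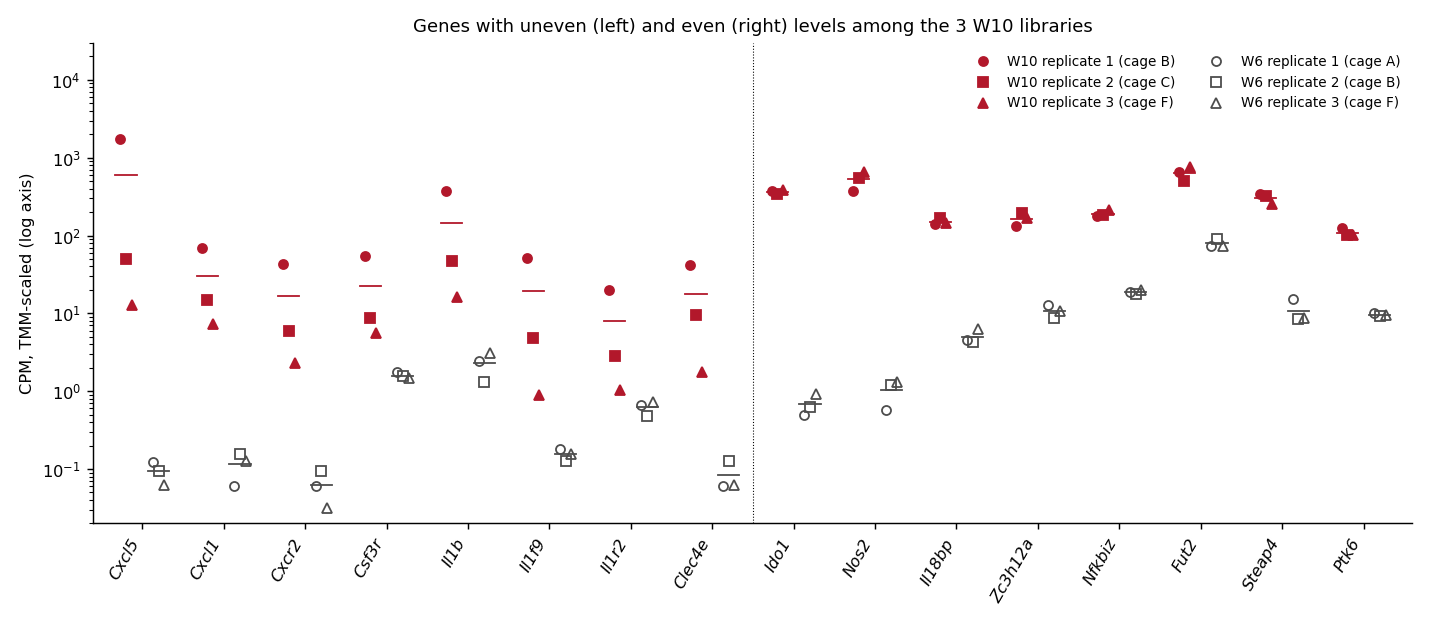
CPM (log axis) of 8 genes with uneven W10 libraries (left of the dotted line) and 8 with even W10 libraries (right); bars are group means. W10 replicate 1 (circle) is the highest of the 3 in every gene on the left, and the W10 symbols on the right, at most 1.77-fold apart (Nos2), lie above all W6 symbols.

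Receptors for microbial products rose in 17 of 32 genes, in 10 on log2 TPM, and fell in 1, with a median of 1.08 (0.36 on log2 TPM). Cd14, the co-receptor for endotoxin, had 725, 609.6 and 493 CPM in W10 colons, against 70.4, 91.3 and 84.8 CPM in W6 colons, and it rose by 2.89 ± 0.57 (adjusted p = 0.00667). Tlr4, the endotoxin receptor, had 214, 130.2 and 101 CPM in W10 colons, against 22.8, 27.3 and 24.7 CPM in W6 colons, and its partner Ly96 rose by 1.41 ± 0.48. All W10 libraries were above all W6 libraries for both Cd14 and Tlr4. Nod2, the intracellular sensor of muramyl dipeptide, rose by 2.73 ± 0.44 and Tlr2 by 2.00 ± 0.45. Sting1 and Cgas, of the cytosolic DNA pathway, rose by 2.18 ± 0.31 and 1.41 ± 0.27, with Sting1 at 116, 90.5 and 102 against 22.1, 20.6 and 25.6 CPM (W10 against W6). The C-type lectins Clec4e, Clec4d and Clec7a, which bind fungal and mycobacterial ligands, rose by 7.65 ± 1.76, 5.53 ± 1.38 and 5.01 ± 1.21, most in W10 replicate 1. The flagellin receptor Tlr5 fell by 2.30 ± 0.80 (adjusted p = 0.0472), at 0.807, 0.99 and 1.29 against 4.59, 5.18 and 5.54 CPM (W10 against W6). Leaving out W6 replicate 1, 2 or 3 left 6, 8 or 7 rises, and leaving out W10 replicate 1 or 2 left 9 or 11, and Tlr5 did not pass in any fit with 1 of the 6 libraries left out.

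Cell death effectors rose in 14 of 27 genes. Zbp1, a nucleic acid sensor upstream of necroptosis, and the necroptosis kinase Ripk3 and its substrate Mlkl rose by 4.41 ± 0.92, 3.02 ± 0.52 and 2.69 ± 0.56. Mlkl, the pore former, had 109, 101 and 87.9 CPM in W10 colons, against 11.6, 15.4 and 19.1 CPM in W6 colons. The groups did not overlap and the W10 libraries were close together. Casp4, the mouse caspase 11 that senses cytosolic endotoxin, had 156, 262 and 89.5 CPM in W10 colons, against 11.8, 16 and 12.8 CPM in W6 colons, and Gsdmd, the pore protein that it cuts, had 272, 261 and 224 CPM in W10 colons, against 81, 73.9 and 80.3 CPM in W6 colons, and it rose by 1.69 ± 0.35 (adjusted p = 0.0079). Casp1, which matures interleukin 1 beta, and Casp8, an initiator of apoptosis, rose by 1.69 ± 0.37 and 1.07 ± 0.25. The adaptor kinase Ripk1 did not pass, at 0.17 (adjusted p = 0.566). Gsdmc4, a gasdermin of gut epithelium, fell by 2.47 ± 0.77, at 4.07, 37 and 34.5 against 113, 170.0 and 136 CPM (W10 against W6). Its relatives Gsdmc2 and Gsdmc3 did not pass, and reads of this cluster of near copies may be split between them. Nlrp3, the sensor of the best known inflammasome, rose by 3.08 ± 0.71. Without W6 replicate 1 or 2, 9 of the 27 rose, and Gsdmc4 did not pass without any 1 of the W6 libraries or W10 replicate 1 or 2.

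Of 22 genes listed for NF-kB subunits and their feedback inhibitors 12 rose and 1 fell. Without the week 14 libraries 5 fell, and 3 fell with a weight for each group. Tnfaip3, the ubiquitin-editing protein A20, had 154, 133 and 129 CPM in W10 colons, against 41.9, 40.2 and 46.3 CPM in W6 colons, and it rose by 1.70 ± 0.27 (adjusted p = 0.00294). Nfkbia, the inhibitor IkB alpha, had 187, 202 and 129 CPM in W10 colons, against 50.8, 47.9 and 47.9 CPM in W6 colons, and Tnip3, which binds A20, had 498, 204 and 111 CPM in W10 colons, against 29, 24.2 and 26.9 CPM in W6 colons. All 3 genes had W10 libraries above all W6 libraries. Cyld, a deubiquitinase, rose by 0.70 ± 0.19, at 66.4, 66.7 and 66.7 against 41, 41.7 and 40.7 CPM (W10 against W6). The subunits Nfkb1, Nfkb2 and Rela did not pass, at -0.00, -0.51 and -0.43; Rel rose by 1.45 ± 0.44 and Relb fell by 0.74 ± 0.22. The inhibitors Nfkbie and Tnip1 did not pass either, at 0.74 and -0.49. Without W6 replicate 1, W6 replicate 2 or W10 replicate 1, 7, 6 or 6 of the 22 rose; Relb did not pass in these fits or without W6 replicate 3.

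Genes of T cell control rose in part. Cd274, which encodes the inhibitory ligand PD-L1, had 115, 146 and 79.3 CPM in W10 colons, against 6.52, 7.3 and 9.05 CPM in W6 colons, and it rose by 3.90 ± 0.76 (adjusted p = 0.00596). The groups did not overlap. The second ligand Pdcd1lg2 and the receptor Pdcd1 rose by 3.19 ± 0.74 and 3.69 ± 0.76, and the costimulatory receptors Tnfrsf9, Tnfrsf4 and Icos by 3.07 ± 0.71, 2.65 ± 0.84 and 2.17 ± 0.57. Foxp3, which defines regulatory T cells, did not pass, at -0.11 (adjusted p = 0.896), with 0.615, 0.205 and 0.482 CPM in W10 colons, against 0.367, 0.411 and 0.627 CPM in W6 colons. Its sign changed when W6 replicate 3 or W10 replicate 2 was left out. Tgfb1, Lag3 and Tigit did not pass either, at -0.50, 0.62 and 1.10. Of the 18 genes listed, 10 rose, 6 rose on log2 TPM, and 3, 3, 5, 5 or 6 rose when W6 replicate 1, 2 or 3 or W10 replicate 1 or 2 was left out. T cell markers summed to 69.8, 88.8 and 33.7 CPM at W10 and 29.3, 22.3 and 37.5 CPM at W6, with W10 replicate 3 within the W6 range.

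Cytokines of the interleukin 17 and 22 axis were higher at W10, and Il17a, Il21 and Il22 were at or near 0 at W6. Il17a had 4.27, 0.922 and 0.12 CPM in W10 colons and no count in W6 colons, which gives at least a 51.5-fold rise against a limit of 3 counts over the W6 group. Il21, made by T helper cells, had 2, 1.67 and 0.391 CPM at W10 and no count at W6, at least 41.3-fold higher by the same limit. Il17f had 8.03, 1.67 and 0.452 CPM in W10 colons, against 0.428, 0.19 and 0.0313 CPM in W6 colons, and it rose by 3.93 ± 1.37 (adjusted p = 0.0476). Il22, which acts on epithelium, had 4.19, 3.14 and 0.301 CPM in W10 colons, against 0.0612, 0 and 0.0627 CPM in W6 colons. W10 replicate 3 was lowest in all of these. Its Il17a level was near the 0.0903 CPM that 3 counts make in that library, and its Il17f level was close to that of W6 replicate 1. The receptors Il17ra and Il22ra1 did not pass, at -0.07 and -0.45. The list had 7 rises among 16 genes and 3 on log2 TPM; 2 rose without any 1 of the W6 libraries or W10 replicate 1 and 3 without W10 replicate 2.

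CC chemokines and their receptors rose in 13 of 26 genes, and in 7 on log2 TPM, and none fell. Ccl7 and Ccl8, which attract monocytes, had 274, 162 and 36.8 CPM in W10 colons, against 1.28, 0.822 and 0.971 CPM in W6 colons for Ccl7 and 247, 166 and 28.1 CPM in W10 colons, against 1.8, 0.98 and 1.53 CPM in W6 colons for Ccl8. W10 replicate 3 was lowest, and all W10 libraries were above W6. Ccl2 rose by 4.98 ± 1.13 and its receptor Ccr2, on inflammatory monocytes, by 2.46 ± 0.67. The gut-homing chemokine Ccl25 and its receptor Ccr9 did not pass, at 0.97 and 0.34. Without any 1 of the W6 libraries 3 rose, and 5 or 7 rose without W10 replicate 1 or 2. Genes of inflammatory monocytes and macrophages moved in both directions, with 9 of 24 higher and 2 lower. Ly6c2, a monocyte surface protein, had 43, 30.9 and 17.7 CPM in W10 colons, against 3.12, 1.68 and 2.04 CPM in W6 colons, and it rose by 3.74 ± 0.61 (adjusted p = 0.00315). Fcgr4 and Fcgr1, receptors for immunoglobulin G, rose by 3.79 ± 0.70 and 2.56 ± 0.63. Cd163 and Folr2, which mark resident tissue macrophages, fell by 2.81 ± 0.73 and 2.05 ± 0.55. Cd163 had 1.23, 0.751 and 0.723 CPM in W10 colons, against 7.74, 4.96 and 6.23 CPM in W6 colons, so that the ages were apart in the opposite direction to Ly6c2. Saa3, an acute phase apolipoprotein, rose by 6.61 ± 1.55, and Acod1, which makes itaconate in activated macrophages, by 4.61 ± 1.02, at 51.7, 26.4 and 7.01 against 0.979, 0.98 and 1.5 CPM (W10 against W6). General macrophage genes such as Csf1r, Adgre1 and Cd68 did not pass, at -1.0, -0.72 and -0.08. Leaving out W6 replicate 1, 2 or 3 left 3, 4 or 4 rises and leaving out W10 replicate 1 left 5, and neither fall passed without W6 replicate 1 or W10 replicate 1 (1 passed without W6 replicate 3 or W10 replicate 2).

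Of 8 type 2 genes tested 4 rose, and 2 on log2 TPM. Il4ra, the chain shared by the interleukin 4 and 13 receptors, had 80.1, 53.3 and 66.9 CPM in W10 colons, against 25.9, 20.7 and 29.2 CPM in W6 colons, and it rose by 1.40 ± 0.25 (adjusted p = 0.00386), and Il13ra1 rose by 1.44 ± 0.31. Il4 did not pass, at -1.83. Areg, a growth factor for epithelium, rose by 2.17 ± 0.63 and the transcription factor Gata3 by 1.5 ± 0.47. There were 2 rises when any 1 of the W6 libraries or W10 replicate 1 was left out. Among antibody genes 6 of 20 rose, and 3 on log2 TPM. B cell markers summed to 228, 285 and 24.8 CPM at W10 and 109, 94.8 and 150.2 CPM at W6, with W10 replicate 3 below all W6 libraries; their part in the result was not tested. Prdm1, a transcription factor of plasma cells and of maturing epithelium, had 41.8, 34.1 and 22.1 CPM in W10 colons, against 4.93, 3.95 and 4.54 CPM in W6 colons, and it rose by 2.87 ± 0.44 (adjusted p = 0.0026). Reads assigned to the constant regions Ighg2c, of an isotype to which interferon gamma directs switching, and Ighg2b rose by 3.69 ± 0.92 and 3.07 ± 1.01. These and the other heavy chains share reads, and whether BALB/c mice carry each gene so named was not checked. Igha, the main isotype of gut plasma cells, did not pass, at 0.49 (adjusted p = 0.587). Leaving out W6 replicate 1, 2 or 3 left 2, 1 or 1 rises, and leaving out W10 replicate 1 or 2 left 2. Mast cell genes were mixed. Hdc, which makes histamine, rose by 4.53 ± 0.97, with W10 replicate 1 highest at 31.7, 6.55 and 3.79 against 0.673, 0.569 and 0.564 CPM (W10 against W6). Kit, which mast cells share with interstitial cells of Cajal, fell by 1.96 ± 0.66. Markers of those interstitial cells summed to 93.3, 157 and 236 CPM at W10 and 446, 442 and 427 CPM at W6. Kit is among the markers summed, so the sum is not separate from its fall. The mast cell proteases Cpa3, Mcpt4 and Cma1 did not pass. Of the 2 rises of this list 1 passed without any 1 of the W6 libraries or W10 replicate 1, and Kit did not pass without any 1 of them or W10 replicate 2.

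Genes of protein folding in the endoplasmic reticulum rose in 15 of 27, and 1 fell, with a median of 1.06. On log2 TPM 7 rose and the median was 0.26. With RIN as a covariate or without the week 14 libraries 4 fell. Hspa5, the chaperone BiP, had 1263, 1140.3 and 1319 CPM in W10 colons, against 349, 398 and 438 CPM in W6 colons, and it rose by 1.65 ± 0.30 (adjusted p = 0.00413). The groups did not overlap, and the W10 libraries were close together. Creld2, Sdf2l1 and Manf, secreted or resident targets of the response, rose by 2.24 ± 0.42, 2.25 ± 0.53 and 2.49 ± 0.61. The transcription factors Xbp1 and Atf4 rose by 1.33 ± 0.33 and 1.99 ± 0.47, while the stress sensors Atf6, Eif2ak3, Ern1 and the epithelial form Ern2 did not pass, at -0.39, -0.49, -0.70 and -1.24. Chac1, which degrades glutathione and is a target of Atf4, rose by 2.91 ± 0.79, and Sesn2, another target, fell by 1.12 ± 0.33. Leaving out W6 replicate 1, 2 or 3 or W10 replicate 1 left 2, 3, 4 or 4 rises, and Sesn2 passed in none of these fits or without W10 replicate 2.

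Ribosome biogenesis genes rose in 15 of 33 and none fell, with a median of 0.75; on log2 TPM 6 rose and the median was 0.18. Nop58 and Dkc1, of the complexes that modify ribosomal RNA, had 95.8, 113 and 111 against 50.9, 57.9 and 49.1 CPM for Nop58 and 38.9, 58.1 and 56.6 against 23.5, 20.5 and 22.8 CPM for Dkc1 (W10 against W6). Both were higher in every W10 library, with rises of 1.02 ± 0.18 (adjusted p = 0.00398) and 1.20 ± 0.20 (adjusted p = 0.00339). Npm1, a nucleolar chaperone, rose by 1.13 ± 0.29 and Gnl3, nucleostemin, by 1.85 ± 0.32. Myc and the polymerase subunit Polr1a did not pass, at 0.42 and -0.71. The medians of the 3 W10 libraries over the W6 mean were 0.09, 0.74 and 1.13, lowest in W10 replicate 1, where neutrophil markers were highest. The number of rises was 9 without W6 replicate 1 or 2. Srm, which makes the polyamine spermidine, had 63.7, 75.4 and 89.2 CPM in W10 colons, against 22.2, 21.8 and 21.9 CPM in W6 colons, and it rose by 1.79 ± 0.27 (adjusted p = 0.00209). Of the arginine and polyamine list 7 of 23 rose, and 3 on log2 TPM, among them Odc1, the first enzyme of the path, by 1.42 ± 0.34. Arg1, which makes its substrate, had 26.8, 1.02 and 0.331 CPM in W10 colons, against 0.581, 0.411 and 0.376 CPM in W6 colons; its rise of 4.35 ± 1.48 came from W10 replicate 1, and W10 replicate 3 was below all W6 libraries. The list's median was 0.58 and had the opposite sign, -0.19, on log2 TPM. In the fit described 1 of the list fell, and 4 fell without the week 14 libraries. The list had 1, 2, 2 or 1 rises without W6 replicate 1, 2 or 3 or W10 replicate 1.

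Genes of the cell cycle rose in 10 of 29 and none fell. Ccne1 and Ccne2, cyclins E1 and E2 of entry into S phase, rose by 2.31 ± 0.51 and 2.13 ± 0.55. Ccne1 had 27.2, 26.1 and 21.6 CPM in W10 colons, against 4.62, 4.87 and 5.54 CPM in W6 colons, the groups being apart in every library. Pcna, the sliding clamp of replication, rose by 1.24 ± 0.40, and the mitotic genes Cdk1, a kinase, and Birc5, survivin, by 1.35 ± 0.40 and 1.95 ± 0.57. Mki67 did not pass, at -0.39 (adjusted p = 0.617), and neither did any of the Mcm2 to Mcm7 genes that were listed. There were 1, 1, 5 or 2 rises without W6 replicate 1, 2 or 3 or W10 replicate 1, and 5 on log2 TPM. Enzymes of cholesterol synthesis rose in 9 of 26 genes, in 2 on log2 TPM, and 1 fell. Msmo1, a sterol oxidase, had 731, 515 and 324 CPM in W10 colons, against 89.4, 153 and 159 CPM in W6 colons, and it rose by 1.97 ± 0.48 (adjusted p = 0.0152). Idi1 rose by 1.83 ± 0.59, Dhcr7 fell by 1.06 ± 0.36, and the regulators Srebf1 and Srebf2 and the fatty acid synthase Fasn did not pass, at -0.44, -0.30 and -1.21. No cholesterol gene rose without W6 replicate 1 and 1, 2, 1 or 2 rose without W6 replicate 2 or 3 or W10 replicate 1 or 2. The list's median of 0.53 was -0.04 on log2 TPM.

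Nuclear and mitochondrial genes of oxidative phosphorylation differed in their values. Of 37 nuclear genes 32 had all W10 libraries above all W6 libraries, against 27.5% of all genes, and 5 passed the test. Cycs, cytochrome c, had 547, 443 and 266 CPM in W10 colons, against 77.9, 79.6 and 87.1 CPM in W6 colons, and it rose by 2.36 ± 0.56 (adjusted p = 0.0139). The median of the nuclear genes was 0.87, and it was 0.26 on log2 TPM. None of the 13 genes encoded in the mitochondrial genome passed, and their median was -0.06. The difference between the 2 sets was not tested. With RIN as a covariate, without the week 14 libraries or with a weight for each group 26 of the nuclear genes rose, 28 rose in the 6 libraries alone and 10 with DESeq2. Between 0 and 10 of the nuclear genes passed with 1 library left out, none without W6 replicate 1, W6 replicate 2 or W10 replicate 1, and 10 without W10 replicate 3.

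**Figure D4:**
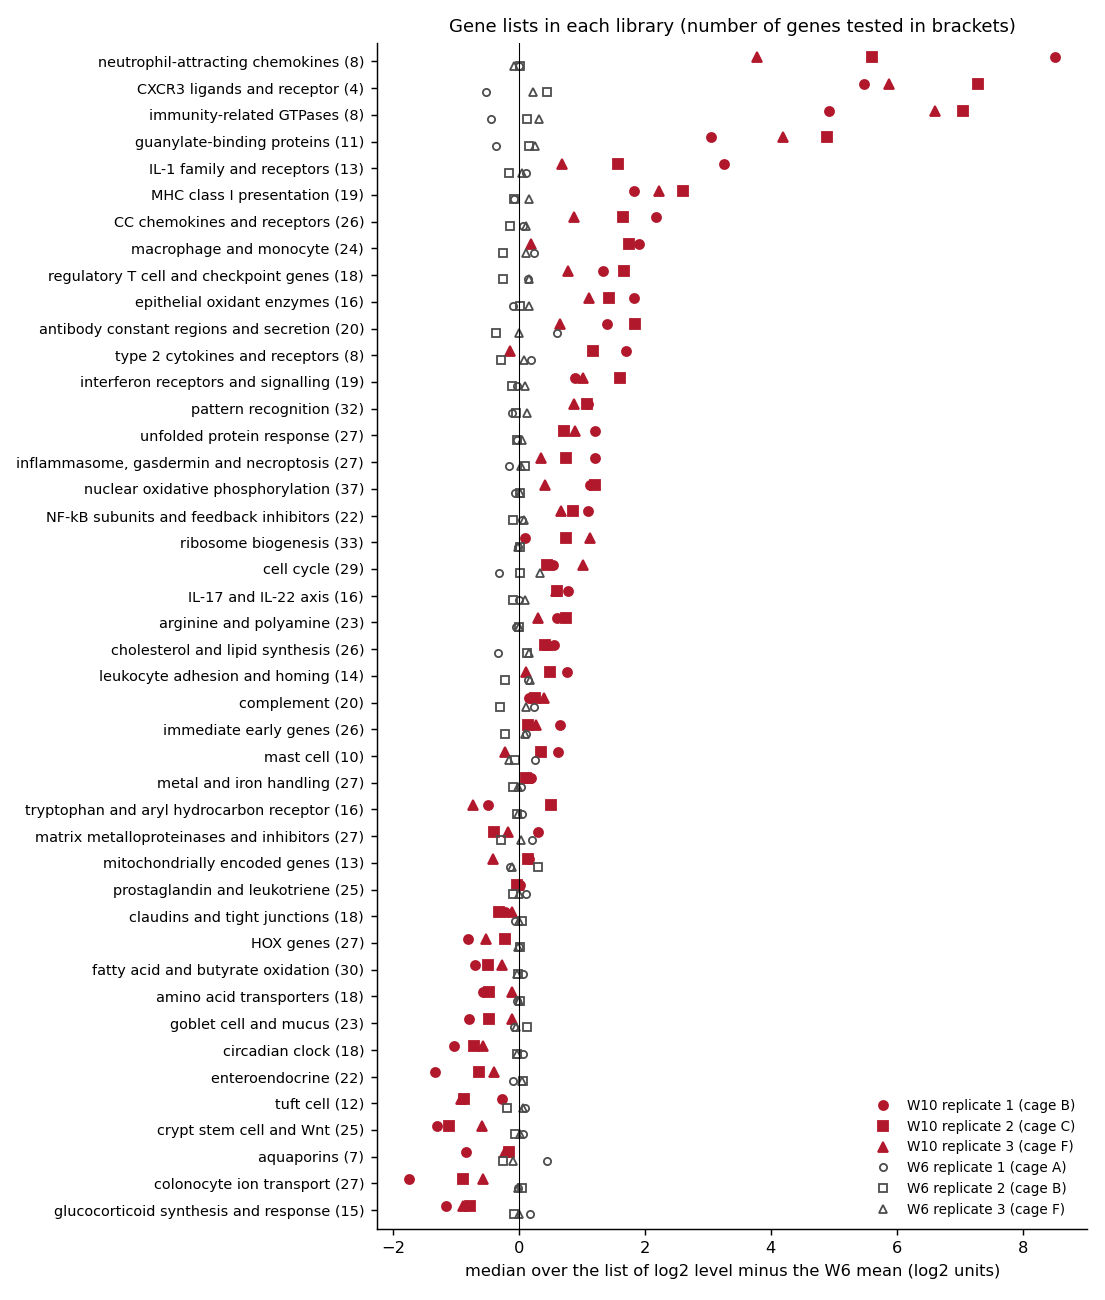
Median log2 level of each of 44 gene lists relative to the W6 mean, in each library; filled red symbols are W10 libraries and open grey symbols W6 libraries, and the number of genes tested is in brackets. W10 replicate 1 (circle) is farthest to the right for neutrophil-attracting chemokines and the IL-1 family, and lowest of the W10 libraries for both GTPase families.

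Genes of absorption and secretion by colonocytes were among those lower at W10. Of 27 genes listed 8 fell and 3 rose, with a median of -1.01 (-1.55 on log2 TPM); 15 fell with RIN as a covariate and 16 without the week 14 libraries. Car1, a carbonic anhydrase of mature colonocytes, had 102, 92.1 and 69.7 CPM in W10 colons, against 1192, 1123 and 907 CPM in W6 colons, and it fell by 3.61 ± 0.51 (adjusted p = 0.0018). The sodium bicarbonate cotransporter Slc4a4 had 9.03, 44.7 and 65.8 CPM in W10 colons, against 249, 323 and 269.8 CPM in W6 colons. No W10 library reached the W6 range in either gene, and W10 replicate 1 was lowest for Slc4a4. Cftr, the chloride channel, fell by 2.46 ± 0.62, at 12.6, 16 and 31.4 against 115, 103 and 112 CPM (W10 against W6). The monocarboxylate transporter Slc16a1, which takes up butyrate, had 219.7, 170.2 and 227 CPM in W10 colons, against 605, 560.3 and 611 CPM in W6 colons, and it fell by 1.53 ± 0.36 (adjusted p = 0.0132). Guca2a, guanylin, which sets fluid secretion, fell by 2.34 ± 0.44; the magnesium channel Trpm6 by 2.10 ± 0.73; and the sodium channel subunit Scnn1b by 1.89 ± 0.55. The chloride bicarbonate exchanger Slc26a3 did not pass, at -1.80 (adjusted p = 0.0871).

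Some members moved in the other direction. Atp12a, the colonic proton pump, had 736, 901 and 1260.5 CPM in W10 colons, against 263, 341 and 280.2 CPM in W6 colons, and it rose by 1.71 ± 0.34, Sgk2 rose by 2.82 ± 0.42 and the sodium proton exchanger Slc9a3 by 1.68 ± 0.46. Epithelial marker sums overlapped between the ages, but changes of the single markers ranged from -1.11 to 1.89. The part of cell composition in these opposite changes was not tested. The ion transport list had 3, 4, 4, 3 or 4 falls without W6 replicate 1, 2 or 3 or W10 replicate 1 or 2. Among aquaporins Aqp1 and Aqp11 fell by 2.12 ± 0.50 and 1.99 ± 0.23; Aqp8, the main water channel of colonocytes, did not pass, at -0.91. Of the tight junction proteins Cldn7 and Cldn23 rose by 1.25 ± 0.36 and 1.64 ± 0.35, while Ocln, occludin, fell by 0.93 ± 0.20, at 95, 94.3 and 91.3 against 165, 196 and 174 CPM (W10 against W6), and Cldn1 by 1.79 ± 0.50. Without the week 14 libraries 5 of the 18 junction genes fell, against 2 in the fit described. In each direction 1 of these passed without any 1 of the W6 libraries or W10 replicate 1 or 2.

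Genes of glucocorticoid synthesis and response fell in 6 of 15 and none rose, with a median of -1.30. With RIN as a covariate or without the week 14 libraries 10 fell, and 11 fell with a weight for each group. Gut epithelium makes its own corticosterone under the nuclear receptor LRH-1, encoded by Nr5a2. Nr5a2 had 5.34, 14.4 and 16.8 CPM in W10 colons, against 42, 53.6 and 49.8 CPM in W6 colons, and it fell by 1.99 ± 0.58 (adjusted p = 0.0286). The steroid dehydrogenases Hsd3b2 and Hsd3b3, near copies that may share reads, fell by 4.41 ± 0.96 and 5.29 ± 1.04. Hsd3b3 had 0.269, 1.43 and 0.662 CPM in W10 colons, against 36.4, 25.1 and 32 CPM in W6 colons. In all of these genes every W10 library was below every W6 library. The glucocorticoid-induced genes Sgk1, Fkbp5 and Tsc22d3, which encodes GILZ, fell by 2.05 ± 0.61, 1.5 ± 0.42 and 0.76 ± 0.21; Tsc22d3 had 26.4, 39.97 and 29.4 against 55.1, 51.4 and 56.1 CPM (W10 against W6). The side-chain cleavage enzyme Cyp11a1 and the receptor Nr3c1 did not pass, at -1.30 and -0.59. Without any 1 of the W6 libraries 2 fell, and 3 fell without W10 replicate 1 or 2.

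Clock-controlled genes fell in 5 of 18 and rose in 2; 8 fell with RIN as a covariate or DESeq2 and 9 without the week 14 libraries. Tef and Dbp, transcription factors whose level follows the clock, fell by 2.24 ± 0.39 and 2.06 ± 0.51. Tef had 4.23, 6.14 and 6.56 CPM in W10 colons, against 27.7, 24.4 and 28 CPM in W6 colons, and the groups did not overlap. Cry2, Per3 and Nr1d1, of the negative arm of the clock, fell by 2.42 ± 0.65, 2.22 ± 0.45 and 1.64 ± 0.55. Nfil3, which acts against Dbp and Tef at the same sites, rose by 1.57 ± 0.27, at 29, 39.4 and 28.1 against 11.3, 9.7 and 11.4 CPM (W10 against W6). The positive arm genes Arntl and Clock did not pass, at -0.74 and -0.36. The labels give no time of day for the samples, so its part in these differences was not tested. There were 2, 3, 3, 2 or 3 falls without W6 replicate 1, 2 or 3 or W10 replicate 1 or 2, and 1 of the 2 rises passed in each of the fits with 1 library left out.

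**Figure D5:**
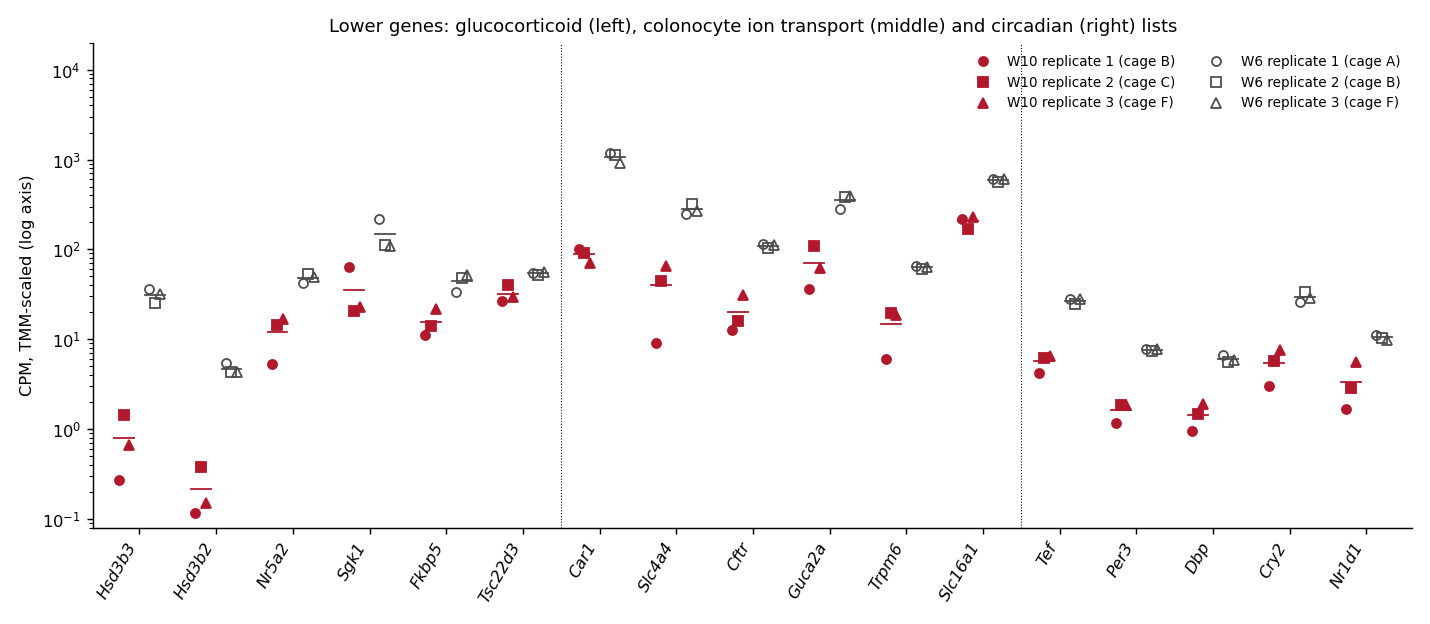
CPM (log axis) of genes called lower in the glucocorticoid (left), colonocyte ion transport (middle) and circadian (right) lists, in each library; bars are group means. Every filled W10 symbol lies below every open W6 symbol of the same gene.

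The largest falls took in enzymes of the intestinal epithelium. Cyp2c55, a cytochrome P450 that oxidises fatty acids, had 0.115, 1.02 and 0.12 CPM in W10 colons, against 318, 182 and 235 CPM in W6 colons, and it fell by 9.17 ± 2.10 (adjusted p = 0.0121). It lies on chromosome 19, 39007019 to 39042693, forward strand, beside its relatives. Cyp2c65 and Cyp2c69, of the same cluster and similar enough to share reads, fell by 5.20 ± 1.39 and 5.42 ± 0.86. Every W10 library was under every W6 library for the 3 enzymes. Slc30a10, a manganese exporter, had 0, 0.512 and 0.301 CPM in W10 colons, against 38, 4.14 and 9.55 CPM in W6 colons, and it fell by 5.94 ± 2.03 (adjusted p = 0.0456). Klb, the co-receptor of endocrine fibroblast growth factors, fell by 5.37 ± 1.20, at 0.269, 0.58 and 0.783 against 21.8, 22.4 and 24.4 CPM (W10 against W6), and the glycosyltransferase Galnt17 by 5.45 ± 1.09.

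Some falls of small p were smaller. A4gnt, which adds terminal N-acetylglucosamine to mucins, had 1.08, 1.95 and 2.08 CPM in W10 colons, against 11.5, 14.2 and 9.87 CPM in W6 colons, and it fell by 2.79 ± 0.33 (adjusted p = 0.00041). Acer1, an alkaline ceramidase, had 4.65, 7.95 and 4.31 CPM in W10 colons, against 48.3, 43.5 and 40.1 CPM in W6 colons, and it fell by 2.96 ± 0.39 (adjusted p = 0.000948). Pdcd4, an inhibitor of translation, had 23.9, 33.1 and 33.1 CPM in W10 colons, against 150.2, 156 and 162 CPM in W6 colons, and Mxd4, which opposes MYC at its sites, had 36.9, 43 and 38.3 CPM in W10 colons, against 122, 107 and 108 CPM in W6 colons. In these 4 genes the groups did not overlap. Among the 10 rises of smallest p were those of Hk2 and Pfkfb3. Hk2, hexokinase 2, had 323, 472 and 722 CPM in W10 colons, against 77.3, 65.1 and 56.1 CPM in W6 colons, and it rose by 2.94 ± 0.33 (adjusted p = 0.000361), and Pfkfb3, which sets the level of fructose bisphosphate that drives glycolysis, had 112, 73.9 and 84.3 CPM in W10 colons, against 10.2, 8.72 and 10.2 CPM in W6 colons, and it rose by 3.22 ± 0.28 (adjusted p = 0.000109).

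The genes called in other epithelial lineages depended on the fit. Of 23 goblet cell genes 2 rose and 4 fell. Retnlb, an antibacterial protein of goblet cells, had 115, 27 and 7.41 CPM in W10 colons, against 1.8, 0.506 and 0.345 CPM in W6 colons, and it rose by 5.80 ± 1.64 (adjusted p = 0.025). Atoh1, which commits cells to the secretory lineage, fell by 1.47 ± 0.37, at 14.1, 23.5 and 32.1 against 62.1, 71.8 and 59.5 CPM (W10 against W6). Muc2, the main mucin, did not pass, at -1.11 (adjusted p = 0.0628), although all W10 libraries were below W6. Of 22 enteroendocrine genes 3 rose and 4 fell. Cck, cholecystokinin, rose by 4.98 ± 1.10, at 2.96, 2.32 and 0.994 against 0.122, 0.0316 and 0.0313 CPM (W10 against W6). Gcg, which encodes the glucagon-like peptides, rose by 1.04 ± 0.26, and Chga, chromogranin A, fell by 1.62 ± 0.53. In both lists no gene fell without W6 replicate 1, W6 replicate 2 or W10 replicate 1, 0 or 1 fell without W6 replicate 3 or W10 replicate 2, and 8 fell without W10 replicate 3. With RIN as a covariate or without the week 14 libraries 9 goblet and 9 enteroendocrine genes fell. No goblet gene rose without any 1 of the W6 libraries or W10 replicate 1, and 1 enteroendocrine gene rose without any 1 of the W6 libraries. Of 25 crypt stem cell and Wnt genes 1 rose and 1 fell, and Lgr5 did not pass, at -1.66. The rise was that of Olfm4, which had 2.88, 0.717 and 0.12 CPM at W10 and 2 counts over the W6 libraries (a ratio of 54.4, counting interval 14.7 to 455), and the fall that of Tnfrsf19, by 1.92 ± 0.64; neither passed without any 1 of the W6 libraries or W10 replicate 1, and 6 of the list fell without W10 replicate 3. With DESeq2 8 of the 25 fell, with RIN as a covariate 13, without the week 14 libraries 14, with a weight for each group 11 and in the 6 libraries alone 7. Of 12 tuft cell genes Dclk1 fell, by 1.65 ± 0.41, though not without W6 replicate 1 or W10 replicate 1; without the week 14 libraries 4 fell.

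In fatty acid and butyrate oxidation 3 of 30 genes rose and 4 fell. The falls numbered 12 with RIN as a covariate or a weight for each group, 14 without the week 14 libraries, 9 in the 6 libraries alone and 7 with DESeq2. Acsm3, a medium-chain acyl-CoA synthetase, had 62.6, 81.2 and 78.9 CPM in W10 colons, against 182, 231 and 199.6 CPM in W6 colons, and it fell by 1.46 ± 0.24 (adjusted p = 0.00305). Acaa2, a thiolase, fell by 1.46 ± 0.32, and Acadl, an acyl-CoA dehydrogenase, rose by 1.39 ± 0.31. Leaving out any 1 of the W6 libraries or W10 replicate 1 or 2 left 1 rise, and leaving out W6 replicate 1, W10 replicate 1 or W10 replicate 3 gave 2, 2 or 7 falls. Pck1, of gluconeogenesis, was among the largest falls, at 1.46, 4.44 and 8.43 CPM in W10 colons, against 177, 101 and 167 CPM in W6 colons, a change of -4.95 ± 1.17. HOX genes, which mark position along the gut, fell in 8 of 27 and none rose, by small amounts. Hoxb13, expressed in the most distal colon, had 202, 242 and 236 CPM in W10 colons, against 339, 401 and 397 CPM in W6 colons, and it fell by 0.74 ± 0.22 (adjusted p = 0.0293). None fell without any 1 of the W6 libraries or W10 replicate 1, 1 fell without W10 replicate 2 and 5 fell without W10 replicate 3.

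Of 27 genes of matrix metalloproteinases, related enzymes and inhibitors 6 rose (22.2%) and 4 fell (14.8%), with a median of -0.008. Over all genes the shares were 14.6% and 9.48%. Mmp7 and Mmp10, metalloproteinases of wounded epithelium, rose by 6.56 ± 1.65 and 4.0 ± 1.03. Mmp7 had 15.5, 2.94 and 3.37 CPM in W10 colons, against 0.0306, 0.0948 and 0.094 CPM in W6 colons, highest in W10 replicate 1. Mmp2 and Timp2, which fibroblasts make, fell by 2.02 ± 0.65 and 1.65 ± 0.45, beside the lower fibroblast markers, and Mmp15 fell by 2.39 ± 0.56, at 31.6, 31.5 and 54.6 against 197, 209 and 209 CPM (W10 against W6). No gene of this list rose without W10 replicate 1 or any 1 of the W6 libraries, where 0 or 1 fell, and 2 fell without W10 replicate 2; 3 rose and 7 fell on log2 TPM and 8 fell with RIN as a covariate. In prostaglandin metabolism 4 of 25 genes rose and 5 fell, and 8 fell without the week 14 libraries. The secreted phospholipases Pla2g2a and Pla2g5, which free fatty acids from membranes, rose by 6.24 ± 1.17 and 4.22 ± 0.56. Pla2g5 had 33.5, 75.2 and 64.3 CPM in W10 colons, against 2.75, 3.1 and 3.41 CPM in W6 colons. Hpgd, the enzyme that breaks down prostaglandins, had 59.4, 83.6 and 77.6 CPM in W10 colons, against 165, 223 and 205 CPM in W6 colons, and it fell by 1.43 ± 0.22 (adjusted p = 0.00217). The constitutive cyclooxygenase Ptgs1 fell by 1.31 ± 0.40, and the inducible Ptgs2 did not pass, at 1.84 (adjusted p = 0.0941). Each fit without 1 of the W6 libraries or without W10 replicate 1 or 2 left 1 fall.

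Genes of iron handling moved in both directions. Tfrc, the transferrin receptor, had 182, 130.2 and 126 CPM in W10 colons, against 52.4, 67.9 and 51.3 CPM in W6 colons, and it rose by 1.36 ± 0.31 (adjusted p = 0.0119), and Hamp, hepcidin, rose by 4.29 ± 1.29. Slc40a1, the iron exporter ferroportin, had 149, 182 and 162 CPM in W10 colons, against 457, 267 and 331 CPM in W6 colons, and it fell by 1.10 ± 0.33. In Tfrc and in Slc40a1 the groups did not overlap. Lcn2, which binds bacterial iron carriers, had 113, 55.2 and 30.9 CPM in W10 colons, against 1.87, 0.506 and 0.752 CPM in W6 colons, and it rose by 5.98 ± 1.12. Of 27 metal genes 7 rose and 5 fell, and 4 rose on log2 TPM; 2, 4, 2, 3 or 4 rose without W6 replicate 1, 2 or 3 or W10 replicate 1 or 2, and none, or 1 without W10 replicate 2, fell. Complement genes rose in 4 of 20, in 2 on log2 TPM; C2 had 27.4, 60.4 and 76.7 CPM in W10 colons, against 10.0, 5.34 and 8.52 CPM in W6 colons, and it rose by 2.79 ± 0.54, and C3 did not pass, at -0.05. Leaving out any 1 of the W6 libraries left 1 rise, and leaving out W10 replicate 1 or 2 left 2. Of amino acid transporters 4 of 18 rose and 3 fell; 2 rose on log2 TPM and 7 fell without the week 14 libraries. Slc7a9, of cystine uptake, rose by 2.57 ± 0.50, at 20.9, 36 and 16.5 against 4.01, 4.39 and 3.95 CPM (W10 against W6), and Slc6a14, a broad transporter of colon epithelium, fell by 1.03 ± 0.27, at 341, 354 and 296 against 738, 669 and 618 CPM (W10 against W6). There were 2, 1, 1 or 2 rises without W6 replicate 1, 2 or 3 or W10 replicate 1, and 1 fell without W6 replicate 1, W6 replicate 2 or W10 replicate 1.

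Of 14 genes of leukocyte adhesion and homing 3 rose, 1 on log2 TPM, and 1 fell; Icam1, the ligand of leukocyte integrins, had 36.2, 87.4 and 70.4 CPM in W10 colons, against 16.2, 13.1 and 17.7 CPM in W6 colons, and it rose by 2.05 ± 0.36 (adjusted p = 0.00381), while Vcam1 and Madcam1 did not pass, at 0.35 and -0.14. Of the 14, 1 rose without any 1 of the W6 libraries or W10 replicate 1. Of 26 immediate early genes 6 rose, 2 on log2 TPM, and 1 fell. There were 2, 0 or 3 rises without W6 replicate 1, 2 or 3 and 2 without W10 replicate 2. Without the week 14 libraries or in the 6 libraries alone 4 fell. Junb, a subunit of AP-1, rose by 1.55 ± 0.41 and Zfp36, which degrades cytokine mRNAs, by 1.55 ± 0.35. Of 16 genes of tryptophan and the aryl hydrocarbon receptor Ido1 and Wars rose and 3 fell; 1 rose without W6 replicate 1 and 4 without W10 replicate 3. The falls were those of Afmid, of kynurenine formation, by 0.84 ± 0.23, of Cyp1a1, the main target of the receptor, by 3.81 ± 1.17, and of Ahrr. None of the list fell without any 1 of the W6 libraries or W10 replicate 1, and 1 fell without W10 replicate 3. Wars, the tryptophan tRNA ligase that interferon gamma induces, had 292, 1205 and 1873 CPM in W10 colons, against 125, 181 and 159 CPM in W6 colons, with W10 replicate 1 lowest. Ahrr, the repressor that the receptor induces, fell by 1.67 ± 0.48 (adjusted p = 0.0275), at 1.15, 1.77 and 0.843 against 4.53, 3.83 and 3.67 CPM (W10 against W6), and it passed without W10 replicate 2 and in no other fit with 1 library left out.

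Use of alternative transcripts was tested from the deposited estimates per transcript in 10701 genes with 2 or more transcripts. The test of edgeR (diffSpliceDGE) called 102 genes (0.953%) and that of limma (diffSplice), chosen after seeing the data because diffSpliceDGE called too many unchanged genes in simulated counts, called 47 (0.439%); 23 genes were called by both. In Ptp4a1, a phosphatase, transcript ENSMUST00000027232.14 made up 0%, 0.0205% and 0.0843% of the gene's estimated counts in W10 colons, against 8.97%, 39.8% and 39.4% in W6 colons. Its adjusted p was 4.69e-07 in edgeR and 0.00337 in limma. In Cyth2, an exchange factor for ARF GTPases, ENSMUST00000210853.2 made up 29.6%, 23% and 10.3% at W10, against 0%, 0.127% and 0% at W6 (0.000133 and 0.00463). Both transcripts separated the ages completely, in opposite directions.

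Plekha2 used ENSMUST00000128715.7 for 86.7%, 80.1% and 80.8% at W10, against 61.2%, 64.4% and 72.7% at W6 (0.00113 in edgeR and 0.00463 in limma). In Abi1, of the WAVE complex that drives actin branching, ENSMUST00000093171.12 was at 0% in all W10 libraries and at 10.4%, 9.89% and 7.8% in W6 libraries (0.000541 and 0.0147). For Slc25a3 the edgeR call was not shared by limma (0.000148 and 0.389), and its main transcript overlapped between the ages. Shares are estimates from reads that transcripts have in common, and their error of estimation is not in the test.

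Week 10 was also set against the neighbouring ages of the same strain, in the same model. Compared with week 8, 19 genes were higher (0.117%) and 13 lower (0.0798%) at W10; compared with week 12, 39 were higher (0.239%) and 34 lower (0.209%). These comparisons share the W10 libraries with the main one, so their values are given side by side and are no further evidence. Fut2 averaged 641 ± 129 CPM at W10 and 79.5 ± 10.1 CPM at W6 (SD, n = 3 each), and it was 2.18 ± 0.29 above week 8 (adjusted p = 0.0178) and 2.17 ± 0.29 above week 12 (adjusted p = 0.011) on the log2 scale. Tgm2, a transglutaminase chosen after its values were seen, had 634, 207 and 448 CPM in W10 colons, against 124, 96.5 and 108 CPM in W6 colons, a mean of 89.3 CPM at week 8 and 76.9 CPM at week 12. It was above week 8 by 2.27 ± 0.36 (adjusted p = 0.0253) and above week 12 by 2.48 ± 0.36 (adjusted p = 0.011). Srm was above week 8 by 1.68 ± 0.27 (adjusted p = 0.0253) and above week 12 by 1.5 ± 0.27 (adjusted p = 0.0298).

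Edn2 and Edn1 encode endothelins, peptides that constrict vessels. Edn2 had 0.307, 1.19 and 0.482 CPM in W10 colons, against 6.06, 3.51 and 3.1 CPM in W6 colons, with means of 4.19 CPM at week 8 and 6.13 CPM at week 12, a difference of -2.66 ± 0.45 from week 8 (adjusted p = 0.0262) and of -3.20 ± 0.46 from week 12 (adjusted p = 0.011). Edn1 had 2.77, 6.55 and 6.05 CPM in W10 colons, against 30.8, 60.03 and 30.3 CPM in W6 colons, and it fell by 2.97 ± 0.58 relative to W6 (adjusted p = 0.00594); against week 8 it did not pass (adjusted p = 0.0538) and against week 12 it did (adjusted p = 0.0444). Ppfia3, a scaffold protein, had 2.73, 2.36 and 2.41 CPM in W10 colons, against 24.2, 21.1 and 22.7 CPM in W6 colons, with adjusted p = 0.0178 against week 8 and 0.011 against week 12. Of the 19 GTPases described above Gbp9 alone passed, at 1.79 ± 0.34 above week 8 (adjusted p = 0.0422), and against week 12 it did not (adjusted p = 0.0614). Tgtp1 had adjusted p = 0.303 against week 8 and 0.541 against week 12.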

How the data were processed

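Whole pieces of distal colon were sequenced in 18 libraries of 3 mice in each of 6 groups, 15 of them Il10KO, with paired reads of 150 bases, per the labels. The submitters' processing notes name FastQC, kallisto and mm10 without versions. The authors deposited estimated counts per gene and TPM, summed from kallisto's estimates per transcript and named by gene symbol, per the file headers; genes with a summed count under 50 were not in the gene table. The estimated counts were rounded to whole numbers before testing.

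Genes were filtered with filterByExpr, scaled by TMM and fitted with the quasi-likelihood model of edgeR 4.0.16 on all 18 libraries in 6 group means, and p-values were adjusted over 16300 genes by Benjamini and Hochberg. CPM values use the scaled library, with 3 counts as the limit that a 0 allows. Log2 fold changes are those of the quasi-likelihood fit with edgeR's default prior count. Log2 CPM values, used for list medians of single libraries and within cages, had a prior count of 2. The deposited TPM values entered an alternative as log2(TPM + 1). Counts per transcript were tested with diffSpliceDGE of edgeR and diffSplice of limma 3.58.1, and DESeq2 1.42.0 and other settings were alternatives. The scripts were tested on simulated counts. Gene positions are those of GENCODE vM21 (GRCm38), to which 16050 of 16321 symbols matched 1 gene, and promoters are those of RefSeq (GRCm38.p6).

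The members and lists were chosen with earlier results of these data known. Genes were named by rule: among genes called without overlap between the ages and with a group mean of at least 1 CPM, the 12 largest changes and 10 smallest p in each direction, up to 4 called members of each list, and the 5 smallest p for transcript use. Other list members and genes named in the text were chosen after their values were seen. Some list members are counted but not reported here by name. Samples were grouped by genotype and age in the labels, and each library is 1 mouse. The p-values rest on a spread between mice estimated over all 6 groups together, with cage not in the fit. That spread was unequal. Group weights of limma-voom, lower where the spread is wider, were 2.99 at W6, 0.51 at W10 and 0.178 at week 14. Same-numbered libraries did not deviate together (correlations of -0.0695, -0.0719 and -0.0123), so numbers do not pair them. Counting intervals cover counting error only.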

Additional observations from a re-analysis of the deposited data

How the results depend on the processing

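The number of genes called, 3917 in the fit described, was 5945 with DESeq2 (2653 lower), 2021 on log2(TPM + 0.1) (811 higher) and 3250 on log2(TPM + 1), where 978 were higher and 2272 lower. The share of higher among called genes was 60.6%, 30.1% with TPM + 1, 40.1% with TPM + 0.1, 52.3% with RIN as a covariate and 47.8% without week 14. Scaling by library totals gave 2310 calls (1427 higher, 883 lower), RIN as a covariate 7584 (3963 and 3621), leaving out the 3 week 14 libraries 8354 (3994 and 4360), the 6 libraries alone 6177 (2780 lower), and limma with a weight for each group 7029 (3587 and 3442). With WT mice of week 6 in place of the Il10KO mice 2339 were lower. With cage as a factor 2 genes were called, 2 higher and 0 lower. With 1 library left out, 767 to 5242 genes were called, 467 to 3135 of them higher and 300 to 2107 lower. Transcript use was called in 102 genes, in 47 with limma, in 25 when transcripts needed 10% of the gene, and in 7 to 344 with 1 library left out. The cause of these differences was not tested.

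The replicate numbers do not pair the mice. With them as a replicate block 3046 genes were called, and 42 for transcript use, and 37 of the 319 genes followed one by one lost their call.

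Of those genes, 4 changed sign, none of them called. mt-Co2 was at -0.251 on log2 TPM with either pseudocount, Mki67 at 0.402 against WT mice of week 6, and Foxp3 at 0.152 without W6 replicate 3 and 0.222 without W10 replicate 2, in a range of -0.435 to 0.222 over the fits with 1 library left out. Epcam was at -0.48 on log2 TPM with either pseudocount and at -0.165 with library totals. With cage as a factor 306 lost their call, with library totals 50, and with TPM + 1 and TPM + 0.1 65 and 81.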
